A study of Neurospora crassa with 20 samples.

Results

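The regions described here are H3K4me3 peaks of Neurospora crassa Δkmt1/Δdim-5, grown in constant darkness, that lie over H3K9me3 in the wild type. They were chosen by position alone. A narrow H3K4me3 peak of the Δkmt1/Δdim-5 DD list was taken when it overlapped a WT DD H3K9me3 peak by 1 bp or more, with no use of its height, width or any other measured value. This gave 190 peaks of 4815, or 3.95% of the list, and the remaining 4625 peaks served for comparison.

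Both marks were mapped by chromatin immunoprecipitation followed by sequencing (ChIP-seq), in which sheared chromatin that carries a histone mark is recovered with an antibody and its DNA is sequenced. WT was the unmutated strain, Δkmt1/Δdim-5 carried a deletion of the H3K9 methyltransferase gene, and Δkmt2/Δset-1 carried a deletion of the H3K4 methyltransferase gene. Mycelia were kept in the dark for 24 h (DD), and in the LP30 condition they then received 30 min of light. Each condition had 2 biological replicates, which the authors pooled into 1 peak list, so no spread between replicates and no test between strains could be derived. Every H3K4me3 list had the Δkmt2/Δset-1 H3K4me3 ChIP as its control, and the WT H3K9me3 lists had the Δkmt1/Δdim-5 DD H3K9me3 ChIP. The 4 H3K4me3 lists therefore share a control, and a place where that control was low or high affects all of them.

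In Neurospora, H3K9me3 is laid down by KMT1/DIM-5 over AT-rich relics of repeat-induced point mutation, including the centromeres and the chromosome ends, and it directs DNA methylation through HP1. H3K4me3 is laid down by KMT2/SET-1 and usually sits on the nucleosomes near the start of transcribed genes. Both marks are normally found in different parts of the genome. In Δkmt1/Δdim-5 the H3K9me3 is missing, so each WT domain named below marks where that methylation was in the wild type, not a mark that the mutant still carries. In what follows, a domain is 1 peak of the WT DD H3K9me3 list.

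The libraries fitted their labels as far as peaks can show. Neither Δkmt1/Δdim-5 list had an H3K4me3 peak over dim-5 (NCU04402), whose gene is deleted in that strain, whereas the WT DD list had one with a fold enrichment of 1.61. The dim-5 gene also lay under a WT DD H3K9me3 peak, and since the control for that peak lacks the gene, its presence says nothing about methylation. Read totals are not part of the lists, so the depth of each sample is unknown here. The H3K4me3 lists were of similar length, with 4822 peaks in Δkmt1/Δdim-5 LP30, 4449 in WT DD and 4544 in WT LP30.

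The peaks over H3K9me3 mostly lay wholly inside a domain and were narrow and weak. Of the 190 peaks, 147 lay wholly inside a domain (77.4%, 95% Wilson interval 70.9% to 82.7%, which covers counting error only). A further 42 crossed a domain end, and 1 spanned a whole domain, of 231 bp, at NCU16472. The WT H3K9me3 fold enrichment of that domain was 1.13, below the list median of 1.19. Each peak touched a single domain. Their median width was 351 bp (lower and upper quartile 260 and 559 bp), against 1437 bp (1003 and 1905 bp) for all other peaks of the list.

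Fold enrichment, the authors' ratio of ChIP to control at the summit, had a median of 1.26 in the peaks over H3K9me3 and 1.59 in the others. Only 22 of the 190 peaks (11.6%) reached a fold enrichment of 1.5, which 2844 of the others (61.5%) did. The quartiles were 1.20 and 1.36 over H3K9me3 and 1.39 and 1.76 elsewhere, so the upper quartile of the former lay below the lower quartile of the latter. A q under 0.01 was reached by 118 of the 190 peaks (62.1%), where 90.2% of the whole list reached it. The remaining peaks over H3K9me3 passed the permissive cutoff with which the list was called, but not this q.

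**Figure D1:**
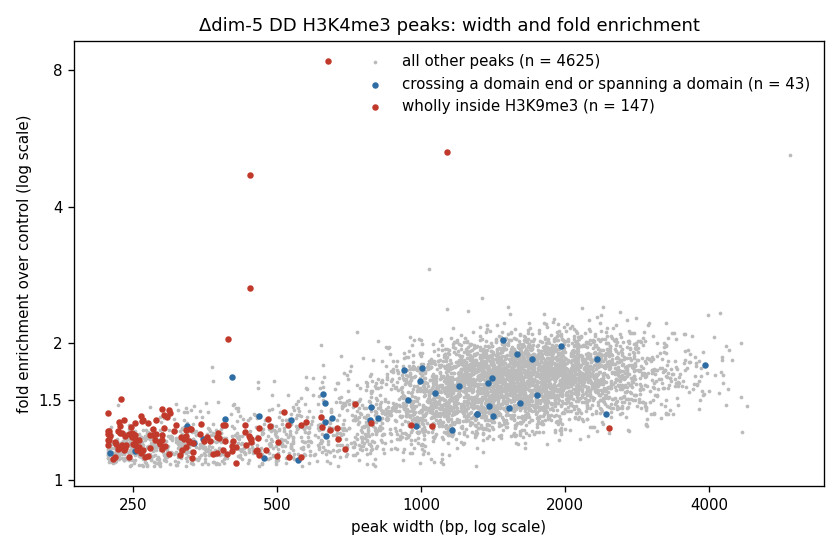
Width (bp, log scale) and fold enrichment at the summit (log scale) of every Δkmt1/Δdim-5 DD H3K4me3 peak, with 147 peaks wholly inside a WT H3K9me3 domain in red, 43 that cross a domain end or span a domain in blue, and 4625 others in grey. Most red points sit at the narrow, low corner (median width 308 bp, median fold enrichment 1.25), the blue points run into the grey cloud, and 5 red points above a fold enrichment of 2 all belong to a single domain on chromosome VI.

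The fold enrichment and the p-value of a summit together give the number of ChIP fragments over it (the ChIP pileup) and the scaled control value the peak caller set against it (the control pileup). Over H3K9me3 the median ChIP pileup was 222 fragments and the median control pileup 178. In the other peaks these medians were 407 and 245. The peaks over H3K9me3 thus had fewer fragments in both the ChIP and the control. A ChIP pileup of 400 or more was found at 12 of the 190 summits (6.32%) and at 58.4% of the others. The highest pileup in the list was 441 fragments, close to the 444 start positions that both strands of the narrowest peak, 222 bp wide, offer, and whether the removal of duplicate reads limits the tall peaks was not tested.

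**Figure D2:**
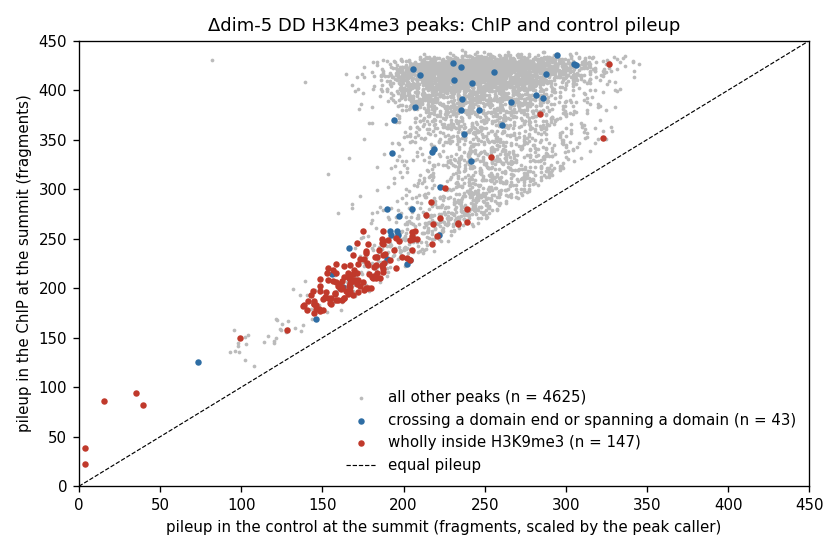
ChIP pileup against control pileup at the summit (fragments) for the same 3 groups, with a dashed line where both are equal. The red points lie in a narrow band above the line around 211 ChIP and 171 control fragments, the medians of the peaks wholly inside a domain, while most grey points lie near the upper limit of the ChIP pileup, and 5 of the red points below 100 ChIP fragments come from the domain over NCU09968.

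Width alone did not set these peaks apart from the rest of the list. Among peaks under 300 bp wide, the 74 over H3K9me3 had a median ChIP pileup of 211 fragments and the 237 others one of 274. The control pileups of these narrow peaks were 169 and 234. Narrow peaks elsewhere therefore rose from a higher local background. Their median fold enrichment, 1.17, was below the 1.24 of the narrow peaks over H3K9me3. Above 1000 bp, the 23 peaks over H3K9me3 and the 3475 others had similar median ChIP pileups, 407 and 414. They differed in that 21.7% and 0.95% had no WT DD H3K4me3 peak, and their median fold enrichments were 1.56 and 1.66.

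Place within the domain separated the peaks into 2 kinds. The summit lay inside the domain in 152 peaks (80.0%) and outside it in 38. The 38 with an outer summit reached into the domain by a median of 104 bp (5 to 292 bp), with the summit a median of 326 bp beyond its end. Their median width was 1037 bp and their median fold enrichment 1.45, both between those of the peaks wholly inside and those of the other peaks. Their summits lay in an annotated gene in 32 cases (84.2%), against 94.1% over the whole list on the 7 chromosomes. Most peaks with an outer summit thus belonged to a gene beside the domain, and the rule took them for a short overlap, although 14 of them (36.8%) had no WT DD H3K4me3 peak, against 9.02% of the other peaks.

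The genes at such edges are mostly protein-coding, and those named in this paragraph were picked after their values were seen. The highest fold enrichment at an edge, 2.04, was at mdk-1 (NCU07580) on chromosome III, where 248 bp of a 1485-bp peak lay in a 26692-bp domain. At cdp-2 (NCU00738), which encodes a chromodomain protein that acts with the histone deacetylase HDA-1, a 1380-bp peak with a fold enrichment of 1.63 reached 200 bp into a 445-bp domain. At rpn-12 (NCU10067), a subunit of the proteasome's regulatory particle, a 1528-bp peak with a fold enrichment of 1.44 shared 34 bp with a 14228-bp domain. All 3 edges carried a WT DD H3K4me3 peak too. The WT H3K9me3 fold enrichment of the domain was 2.76 at mdk-1, 1.16 at cdp-2 and 2.65 at rpn-12. The median of the WT DD H3K9me3 list was 1.19, so the domain at cdp-2 was a weak call.

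The threshold of the rule cuts through this kind of peak. Just inside it were 2 peaks on chromosome V with an overlap of 5 bp each, over NCU07814 (196488 to 198191, fold enrichment 1.85) and at NCU08963 (fold enrichment 1.80). Just outside it was the peak over NCU08696 on chromosome II (3712633 to 3713841), which had a gap of 1 bp to a domain and a fold enrichment of 1.31.

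The 152 inner summits were spread over the whole depth of the domains. Their median distance to the nearest domain end was 16.6 kb, with a range from 12 bp to 167 kb. Within 500 bp of an end there were 11 of them. A further 30 lay 100 kb or more from either end, all in the longest domains on chromosomes V and VII. Counting both kinds of peak, 63 summits (33.2%) lay within 2 kb of a domain end. In domains of 20 kb or more, the 130 inner summits included 43 in the 10% of the length next to either end and 18 in the step from 40% to the middle. The step from 30% to 40% held 33, so the summits did not thin out steadily towards the middle.

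Few of the inner peaks were near a gene. On the 7 chromosomes, the summit of a peak over H3K9me3 lay in a gene in 41 of 182 cases (22.5%), and in 8 of 139 (5.76%) when the peak was wholly inside a domain. The median distance from these 139 summits to the nearest gene was 34.5 kb and the largest was 123 kb. Among the other peaks of the list 96.9% of the summits lay in a gene, and only 2 summits were more than 10 kb from one. The difference was present at like width, since among peaks under 300 bp the summit lay in a gene in 1 of 68 cases over H3K9me3 and in 187 of 237 elsewhere. The long domains themselves held few genes, with 0 to 4 annotated genes touching each chromosomal domain of 100 kb or more. Most positions there are far from a gene, so this contrast describes the domains and is not particular to the peaks.

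Most inner peaks had no counterpart in the WT DD H3K4me3 list. Of the 190 peaks, 154 (81.1%, Wilson 74.9% to 86.0%) overlapped no WT DD H3K4me3 peak. Over the whole list 88.1% of the peaks overlapped one. Of the peaks wholly inside a domain, 136 of 147 (92.5%) had no WT DD peak. Of the peaks with an outer summit, 24 of 38 (63.2%) overlapped one. The share without a WT DD peak was 4.55% for the 22 peaks with a fold enrichment of at least 1.5. It was 72.0% for the 118 with a q under 0.01. Place changed along with height, since only 27.3% of those 22 lay wholly inside a domain, all in the domain over NCU09968. Among peaks wholly inside a domain, 73 of 81 with a q under 0.01 (90.1%) had no WT DD peak. For the other 66 the share was 95.5%. A missing WT peak says that the WT ChIP did not pass the cutoff there against the shared control, not that the mark was absent.

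The same places were called again in Δkmt1/Δdim-5 after light for only part of the peaks. Of the 190, 103 (54.2%, Wilson 47.1% to 61.1%) overlapped a Δkmt1/Δdim-5 LP30 peak, where 95.5% of the whole list did. For peaks wholly inside a domain the share was 62 of 147 (42.2%), and for those with an outer summit it was 37 of 38. Where a peak recurred, the summits of the pair were a median of 54 bp apart. Among the 85 inner peaks that did not recur, 35 had a q under 0.01, against 46 of the 62 that did.

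Again, peaks of like width behaved differently in and out of H3K9me3. Among peaks under 300 bp, 29 of 74 over H3K9me3 (39.2%) recurred in LP30, and 158 of 237 elsewhere (66.7%). Between 300 and 500 bp, the shares were 41.9% of 62 and 83.7% of 283. At 1000 bp or more, every peak of both groups recurred. These shares share the Δkmt2/Δset-1 control and come from pooled lists, so they describe calls and are not a test of light.

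The peaks were concentrated in a small number of domains. Of the 691 WT DD H3K9me3 peaks, 70 (10.1%) held at least 1, 54 of these held exactly 1, and 16 held more. Domains of 100 kb or more numbered 10 and held 92 of the 190 peaks (48.4%) in 29.4% of the domain bases. The density of summits there was 40.6 per Mb, against 11.0 per Mb in all shorter domains. Between 1 and 100 kb the density showed no rise with length. It was 11.3 per Mb in domains of 1 to 5 kb, 11.0 in those of 10 to 20 kb and 12.4 in those of 20 to 100 kb, with none inside the 65 domains of 5 to 10 kb.

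The count over the longest domains set the mutant lists apart from the WT lists. In domains of 100 kb or more, Δkmt1/Δdim-5 DD had 92 peaks, Δkmt1/Δdim-5 LP30 had 51, WT DD had 1 and WT LP30 had 4. In all shorter domains together, these lists had 98, 75, 57 and 81 peaks. Outside the longest domains, then, the Δkmt1/Δdim-5 LP30 list had fewer peaks over H3K9me3 than the WT LP30 list. None of the 92 peaks reached a fold enrichment of 1.5. The highest was 1.47, and 51 had a q under 0.01.

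**Figure D3:**
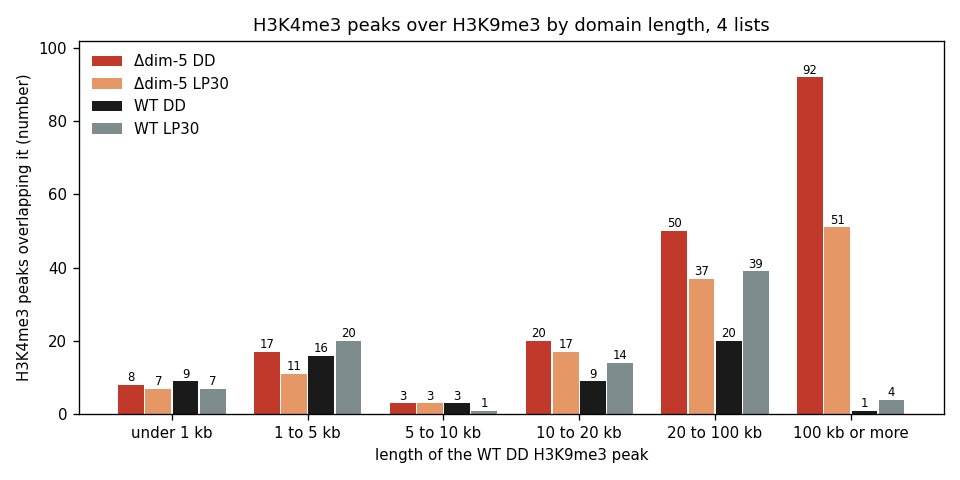
Number of H3K4me3 peaks that overlap a WT DD H3K9me3 peak, by the length of that domain, for the 4 H3K4me3 lists (each pooling 2 replicates). Under 10 kb the bars of the 4 lists are of similar height (at most 20 peaks), and at 100 kb or more the Δkmt1/Δdim-5 bars stand at 92 and 51 against 1 and 4 in WT.

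Set against the rest of the genome, the density stayed low. On the 7 chromosomes, Δkmt1/Δdim-5 DD had 20.2 summits per Mb inside WT H3K9me3 and 140 per Mb outside it. In Δkmt1/Δdim-5 LP30 the densities were 12.2 and 142 per Mb. WT had 3.22 and 133 per Mb in DD and 6.44 and 135 per Mb in LP30. H3K4me3 peaks were thus several times rarer inside WT heterochromatin than outside it in every list, the mutant ones included.

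The long domains were unequal. The domain on chromosome VII (2134736 to 2483087, 348 kb) held 30 peaks, and the longest domain on chromosome VI (2783068 to 3029036, 246 kb) also held 30. The longest domains on chromosomes III (723232 to 965320) and V (891579 to 1218530) held 14 and 11. These 4 domains held 85 of the 190 peaks (44.7%) in 15.1% of the domain bases. By contrast, the 238-kb domain on chromosome I held none, the 214-kb domain on chromosome IV held 1, and the 272-kb and 111-kb domains on chromosome II held 3 and 2. Among the unplaced sequences, the 142-kb domain on supercontig 9 held none and the 125-kb domain on supercontig 10 held 1. The Δkmt1/Δdim-5 LP30 list had the same leading pair, with 21 peaks in the chromosome VII domain and 20 in the chromosome VI domain, and 3 each on III and V.

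Among the longest domains of the chromosomes, those on VII and VI, with the most peaks, had the lowest H3K9me3 enrichment. The fold enrichment of WT H3K9me3, averaged over the domain, was 1.60 on chromosome VII and 1.76 on chromosome VI, against 2.18 on chromosome I, which held no H3K4me3 peak. It did not separate the others, with 1.88 on III (14 peaks), 1.85 on V (11 peaks), 1.86 on II (3 peaks) and 1.89 on IV (1 peak). The domain over NCU09968, on chromosome VI, had 6 peaks and a higher H3K9me3 fold enrichment, 3.28. That ratio is set against the Δkmt1/Δdim-5 H3K9me3 ChIP. The H3K4me3 ChIP of the same strain had low pileups in this domain, and whether a low control raised the 3.28 was not tested. Over all domains of 20 kb or more, the median H3K9me3 fold enrichment was 1.89 for the 33 that held a peak and 2.23 for the 65 that did not. Domains that held a peak were also longer, with a median of 41.4 kb against 31.1 kb, and how far each of these goes with the count was not tested.

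**Figure D4:**
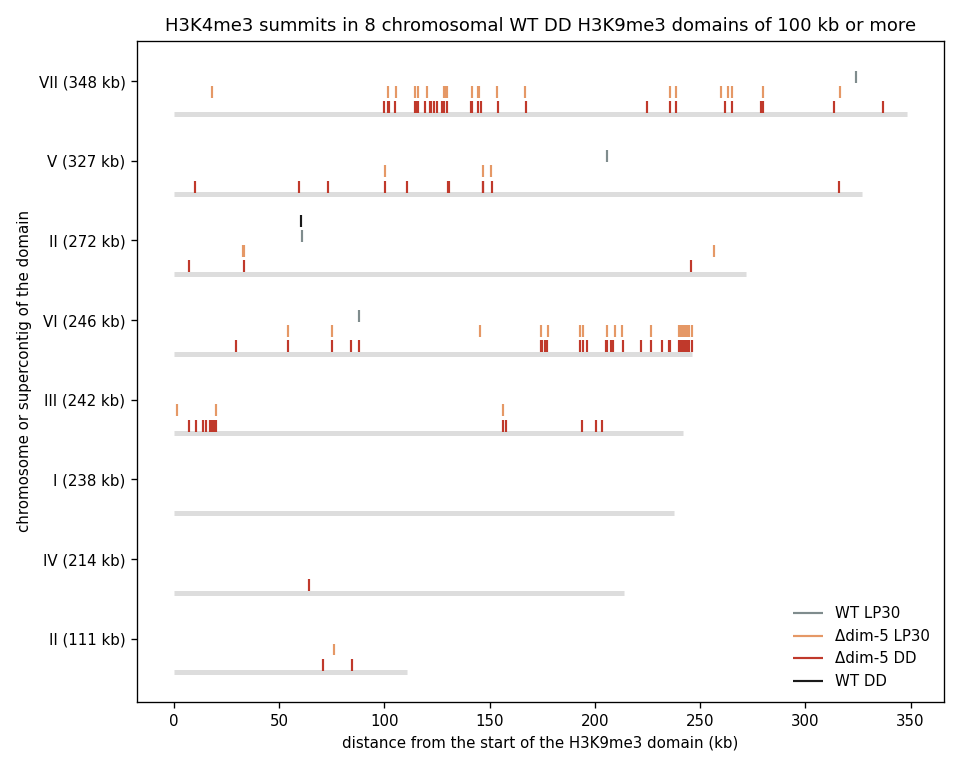
Position of every H3K4me3 summit in the 8 chromosomal WT DD H3K9me3 domains of 100 kb or more, as distance from the start of the domain (kb), with a grey bar for the domain and 1 row of ticks for each H3K4me3 list. Red ticks (Δkmt1/Δdim-5 DD) crowd on chromosomes VII, VI and III, the chromosome I domain has none from any list, and WT DD contributes a single tick, on chromosome II.

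Neighbouring summits were close together when all calls were counted. Within 1 domain, the 120 distances between neighbouring summits had a median of 2895 bp and a minimum of 343 bp, with 26 (21.7%) under 1 kb and 80 (66.7%) under 5 kb. The other peaks of the list had a median spacing of 5151 bp, with 3.81% under 1 kb and 48.8% under 5 kb. Their greater width, a median of 1437 bp, itself leaves little room for spacings under 1 kb. The closest spacing was thus more common over H3K9me3, although the density there was lower. The distances of both groups were not taken alike. Those over H3K9me3 came only from the 16 domains with more than 1 peak and could not exceed the length of the domain. Those of the other peaks ran along whole supercontigs. At the other end, 5 of the 120 distances (4.17%) exceeded 50 kb, as did 65 of the 4618 distances among the other peaks (1.41%).

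**Figure D5:**
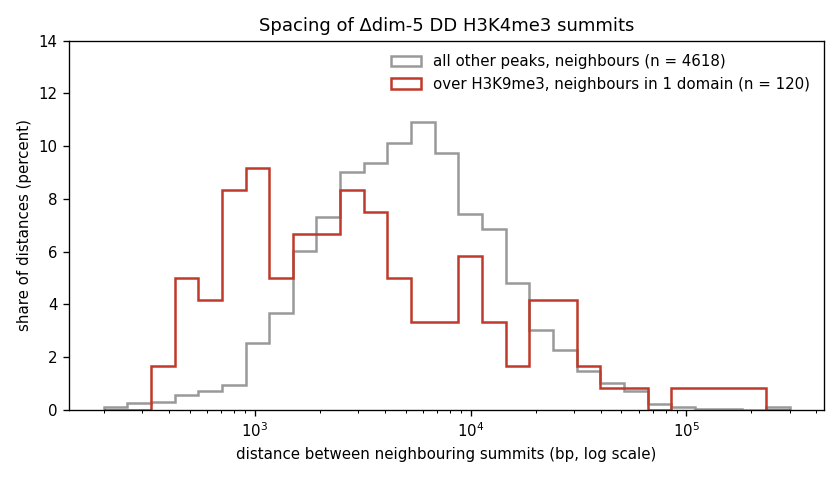
Distribution of the distance between neighbouring Δkmt1/Δdim-5 DD H3K4me3 summits (bp, log scale) as a percentage of the distances in each group, for the 120 neighbours within 1 WT H3K9me3 domain (red) and the 4618 neighbours among all other peaks (grey). The red line has more of its mass under 1 kb (21.7% against 3.81%) and both lines have a tail beyond 50 kb, and the red median is 2895 bp against 5151 bp.

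Taking as a run at least 4 peaks with less than 5 kb between neighbours, 11 runs held 69 of the 190 peaks. Among the other peaks, 30.9% lay in runs defined in the same way, against 36.3% here. Of the 2 largest runs, both of 11 peaks, one covered 14.1 kb at the end of the chromosome VI domain, from 3014893 to 3028974, which is from 94.2% to 100% of its length. The fold enrichments in it ran from 1.16 to 1.39 and the widths from 235 to 651 bp. None of these 11 overlapped a WT DD peak, 9 had a q under 0.01 and 8 recurred in LP30. The last 8 summits were those that recurred, and the 3 farthest from the domain end did not.

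The crowding on chromosome VI went on past the end of this domain. A neighbouring domain of 24.5 kb held a run of 7 peaks between 3042332 and 3050519, and the next one, of 19.5 kb, a run of 4 between 3062530 and 3072042. Together the 4 neighbouring domains from 2783068 to 3080305 held 45 of the 190 peaks (23.7%), none of them over a WT DD peak. On chromosome VI as a whole, 58 of 465 peaks (12.5%) lay over H3K9me3, the largest share of any chromosome. The shares on the others ran from 1.16% on chromosome IV to 7.59% on chromosome VII.

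On chromosome VII a run of 11 peaks covered 15.3 kb from 2249375 to 2264644, from 32.9% to 37.3% of the way along the domain. It held the highest fold enrichment of any peak with an inner summit in a domain of 20 kb or more, 1.47, in a peak of 729 bp with a ChIP pileup of 258 and a control pileup of 175. Its nearest annotated gene was NCU15310, a tRNA pseudogene, 33.3 kb away. The next 3 were in the same run, with fold enrichments of 1.44, 1.43 and 1.41, and the fifth, at 1.41, lay 112708 bp from NCU02438. Of the 11 peaks in the run, 8 had a q under 0.01 and 3 recurred in LP30.

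On chromosome III a run of 9 peaks lay near the start of the long domain (730242 to 743266), with fold enrichments of 1.12 to 1.27. In this run 3 peaks had a q under 0.01 and 1 recurred in LP30, fewer than in the leading runs on VI and VII. In domains of 100 kb or more as a whole, 35 of the 92 Δkmt1/Δdim-5 DD peaks (38.0%) overlapped an LP30 peak, and 37 of the 51 LP30 peaks (72.5%) overlapped a DD peak. In shorter domains the shares were 69.4% of 98 and 86.7% of 75.

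The smaller supercontigs, which are not placed on a chromosome, had 8 H3K4me3 peaks in the Δkmt1/Δdim-5 DD list, and all 8 were over H3K9me3. The domains that hold them start at the first base of their supercontig and are 13515 to 125404 bp long, so a peak there had little room to lie elsewhere. Of these, 4 lay together within 6.53 kb near the end of a domain of 92.3 kb on supercontig 8. The others were on supercontigs 10, 11 and 13. No gene annotation was used for these sequences.

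A single domain on chromosome VI (309478 to 321695, 12218 bp) differed from all of the above. It lies over NCU09968 and NCU09969, the latter named sly-1, overlapping genes in a region that the study describes as a transposon of the WT parent strain. It held 6 peaks, with fold enrichments along the domain of 2.04, 4.71, 8.38, 5.28, 2.64 and 1.51. The first 5 are the highest of all 152 peaks with an inner summit, and the same 5 overlapped WT DD H3K4me3 peaks. The gene spans overlap, so the summits with 4.71 and 8.38 cannot be assigned to either gene.

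The pileups behind these ratios were low. At the highest summit the ChIP had 39 fragments and the control 3.78, and at the 5 others the ChIP had 82, 22, 86, 94 and 150 fragments over control values of 39.7, 3.89, 15.5, 34.9 and 99.1. The median control pileup of the whole list was 244. The WT DD list had over the same place a peak of 8473 bp with a fold enrichment of 96.9, a ChIP pileup of 421 and a control pileup of 3.36, and 2 further peaks with fold enrichments of 3.26 and 2.75. Lists were normalised separately, so 421 and 39 are set side by side only. In Δkmt1/Δdim-5 LP30, 8 peaks with fold enrichments up to 7.85 covered the domain. At the highest Δkmt1/Δdim-5 summit, both deletion strains thus had low pileups, in a domain where the WT summit was near the upper limit, and whether the strains carry the same DNA there was not tested.

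Leaving this domain aside, the peak with the highest fold enrichment among those with an inner summit and no WT DD H3K4me3 peak was at NCU07116 on chromosome VI, 994 bp from the gene. It was 630 bp wide, with a fold enrichment of 1.48, and its summit was 27 bp from the end of a 15651-bp domain. The next ones were in the chromosome VII run described above.

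Among the genes that the study discusses individually, peaks over H3K9me3 were found within 2 kb of NCU02913, NCU16472, NCU09968 and NCU09969. NCU02913 and NCU16472 are neighbouring genes on chromosome I, and both counts refer to the peak at NCU16472, which was 780 bp wide with a fold enrichment of 1.36. It overlapped no WT DD H3K4me3 peak and recurred in LP30. Over the neighbouring NCU02913, WT DD had 1 H3K4me3 peak, with a fold enrichment of 1.15. No peak over H3K9me3 was found at the clock gene frq (NCU02265), which had 2 Δkmt1/Δdim-5 DD H3K4me3 peaks within its annotated span. The nearest WT DD H3K9me3 peak was 115744 bp from frq. A missing call in this pooled list does not show that the mark was absent from frq in the dark. The WT LP30 list, which the rule did not use, had an H3K9me3 peak 767 bp from frq, with a fold enrichment of 1.17. At the photoreceptor gene vvd (NCU03967), the single Δkmt1/Δdim-5 DD H3K4me3 peak, with a fold enrichment of 1.16, did not touch the H3K9me3 peak there. At NCU16528, inside the long domain of chromosome II, WT DD had a peak with a fold enrichment of 4.23 and Δkmt1/Δdim-5 had none in either condition.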

How the data were processed

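H3K4me3 and H3K9me3 ChIP-seq was deposited as 8 peak lists, each pooling 2 replicates, and 7 were used. NC12 was the build to which the authors aligned reads, with BWA, and macs2 was their peak caller (both tools also stand in the submitters' processing notes). Each deposited peak has coordinates, a score, a fold enrichment (ratio of ChIP to control), a −log10 p-value and a −log10 q-value, given at the summit for H3K4me3 and as a mean over the peak for H3K9me3. As each list was scaled on its own, fold enrichments of different lists are only set side by side.

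Overlap meant 1 bp or more. The Poisson p-value and the fold enrichment, equal to (k + 1)/(λ + 1), were solved for the pileups at the summit, k in the ChIP and λ in the control, and 95.5% of the k values of the list were within 0.02 of a whole number. Genes came from a RefSeq table of the NC12 assembly without strand. Supercontigs 1 to 7 were taken as chromosomes I to VII. Wilson intervals cover counting error only. No test was made, since the lists hold no replicates and peaks of a list are not replicates.

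Genes were named for the most enriched peaks with an inner summit (5 in any domain, 5 in domains of 20 kb or more, 5 without a WT DD H3K4me3 peak), the peaks next to the threshold, and genes of the study. The members and lists were chosen with earlier results of these data known. The scripts were tested on simulated peaks (Python 3.11.15, NumPy 2.4.6, SciPy 1.17.1, pandas 2.3.3, Matplotlib 3.10.9).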

Additional observations from a re-analysis of the deposited data

How the results depend on the processing

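Of 49 values from 7 alternatives, 23 stayed within the counting interval of the first value or, for counts, within 1.5 times it. Requiring the summit inside the domain, or at least 50% of the peak under H3K9me3, took out the peaks at domain edges. Wholly inside were then 96.7% and 98.0%, within 2 kb of an end 17.1% and 16.0%, without a WT DD H3K4me3 peak 92.1% and 92.0%, recurring in LP30 43.4% and 43.3%, and the median width was 316 and 314 bp. With only domains of 5 kb or more, 84.8% were wholly inside, 23.6% within 2 kb of an end and 86.1% without a WT DD peak. A q under 0.01 for the H3K4me3 peak left 118 peaks, with 68.6% wholly inside, 72.0% without a WT DD peak, 70.3% recurring in LP30, a median width of 399 bp and a median spacing of 4223 bp. A fold enrichment of at least 1.5 left 22 peaks, with 27.3% wholly inside, 77.3% within 2 kb of an end, 4.55% without a WT DD peak, 100% recurring, a median width of 1101 bp and a median spacing of 1538 bp. Of the peaks wholly inside a domain, those that met this minimum all lay in the domain over NCU09968. A q under 0.01 for the H3K9me3 peak, or joining domains less than 1 kb apart, moved no value beyond its limit.

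No paired analysis was possible because each list pools its replicates, and for the same reason leaving out a replicate was not possible. The depth of each sample is unknown. The rate of false calls at the permissive cutoff and the share of reads that map uniquely in repeats were not tested.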
